A study of Mus musculus with 16 samples.

Results

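The mouse Serpina3 gene cluster is a row of closely related serpin genes on chromosome 12. The 8 members described here, Serpina3c, Serpina3f, Serpina3g, Serpina3h, Serpina3i, Serpina3k, Serpina3m and Serpina3n, were found by symbol among 33289 Ensembl gene IDs in the deposited expression table. All 8 symbols had an entry. The study measured RNA of the hemi-brain, perfused with PBS, in C57BL/6J mice of 3 to 4 months. There were 4 groups of 4 libraries, 16 in all: mice labelled Lcn2-/- given LPS (lipopolysaccharide, a bacterial cell wall component that sets off an inflammatory response), wild-type mice given LPS, mice labelled Lcn2-/- given saline, and wild-type mice given saline. All were sampled 8 h after the injection. Lcn2 encodes lipocalin-2, a secreted iron-siderophore-binding protein of the acute phase response.

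Serpins are a family of proteins that mostly inhibit proteases, by offering a reactive loop as bait and trapping the protease that cuts it. The human genome has a single SERPINA3 gene, which encodes alpha-1-antichymotrypsin, an acute phase protein made by the liver and by reactive astrocytes. In mice the same locus has expanded into a cluster whose members differ in their reactive loop and in the tissues that express them. In the mouse brain Serpina3n is widely used as a marker of reactive astrocytes, and inflammatory signals through IL-6 type cytokines and STAT3 are known to induce it.

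On the GRCm38 build, with GENCODE vM21 gene models, the members span 268 kb, from 104146382 to 104414329 on chromosome 12. Their order is Serpina3c, Serpina3f, Serpina3g, Serpina3h, Serpina3i, Serpina3k, Serpina3m and Serpina3n. Serpina3c lies on the minus strand and the other 7 on the plus strand. Serpina3h is annotated as a transcribed unprocessed pseudogene and the other 7 as protein coding. Serpina3k and Serpina3m start at the same base, 104338486, and share 60 exonic bases on the same strand.

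Because the genes are close copies, reads can fall in sequence that several members share. Between the longest annotated transcripts, identity over the aligned bases lay between 74.8% (Serpina3f with Serpina3k) and 94.0% (Serpina3h with Serpina3i). The share of a gene's 50-base windows that also occur in another gene was 21.9% for Serpina3h, 19.1% for Serpina3m, 15.9% for Serpina3i, 15.5% for Serpina3g and 14% for Serpina3k. It was lower for Serpina3f (10.6%), Serpina3n (6.90%) and Serpina3c (4.25%). Windows of 100 bases were shared at 6.09% at most (Serpina3m), and at 0.204% for Serpina3n. The value of any member can therefore depend on how the authors counted such reads, a step not given in the sources used here. A small share can matter where the other gene is abundant. Serpina3n, the most abundant member, holds 2.33% of the 50-base windows of Serpina3g, 1.16% of those of Serpina3c, 1.12% of those of Serpina3m and 0.917% of those of Serpina3f. How far shared reads moved the values was not tested.

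**Figure D1:**
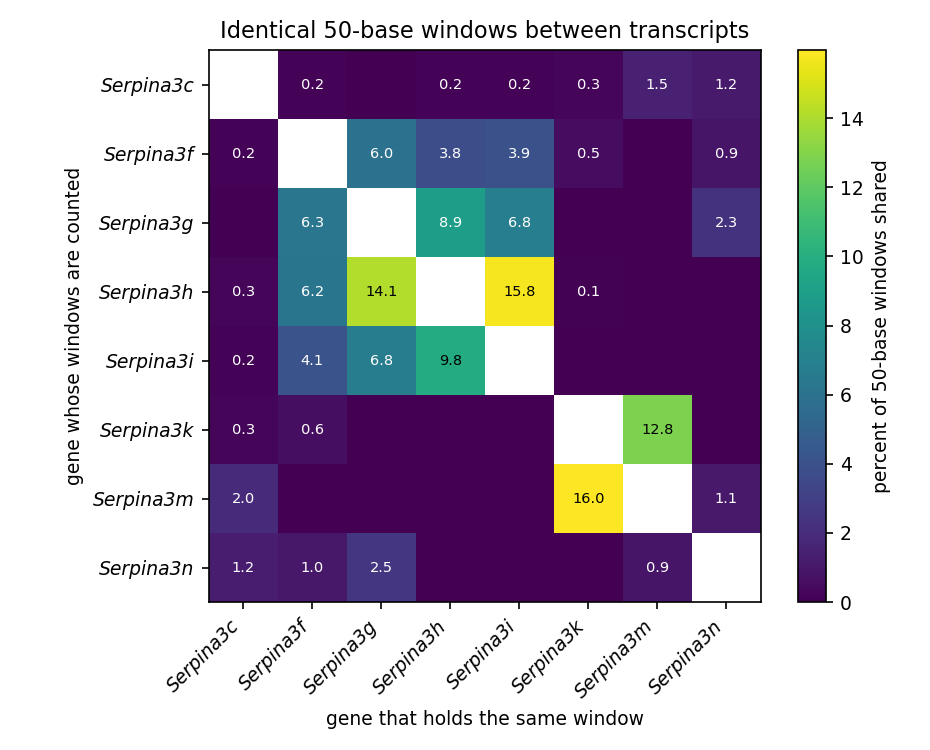
Percent of the 50-base windows of each member (rows) that occur identically in another member (columns), from GENCODE vM21 transcripts. The largest shares are those of Serpina3m with Serpina3k (16%), Serpina3h with Serpina3i (15.8%) and Serpina3h with Serpina3g (14.1%), and Serpina3n shares few windows with any member.

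Promoter sequences show how far the copies have drifted apart upstream of their starts. RefSeq (GRCm38.p6) gave a promoter for 5 of the 8 members. Each is shown as the 250 bases before the start, 5′ to 3′ on the gene's strand, because these are the members that cover both the abundant and the inducible genes described here. Capitals mark the STAT element TTCNNNGAA and the core of the glucocorticoid receptor element, AGAACA.
Serpina3n, chr12:104406458-104406707, plus strand: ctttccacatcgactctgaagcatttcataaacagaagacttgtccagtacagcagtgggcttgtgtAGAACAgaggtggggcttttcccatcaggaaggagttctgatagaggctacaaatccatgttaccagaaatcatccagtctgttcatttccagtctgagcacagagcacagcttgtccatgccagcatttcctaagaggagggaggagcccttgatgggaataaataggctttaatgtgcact
Serpina3c, chr12:104153873-104154122, minus strand: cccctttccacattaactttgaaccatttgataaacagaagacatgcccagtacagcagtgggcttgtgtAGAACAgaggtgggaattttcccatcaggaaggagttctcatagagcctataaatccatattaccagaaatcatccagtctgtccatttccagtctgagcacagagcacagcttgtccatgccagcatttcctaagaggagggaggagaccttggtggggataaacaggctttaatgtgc
Serpina3f, chr12:104214294-104214543, plus strand: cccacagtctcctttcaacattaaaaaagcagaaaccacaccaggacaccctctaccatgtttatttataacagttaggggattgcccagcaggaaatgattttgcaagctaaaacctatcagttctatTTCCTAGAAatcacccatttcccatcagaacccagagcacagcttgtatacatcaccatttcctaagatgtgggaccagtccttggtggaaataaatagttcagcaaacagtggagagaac
Serpina3g, chr12:104235897-104236146, plus strand: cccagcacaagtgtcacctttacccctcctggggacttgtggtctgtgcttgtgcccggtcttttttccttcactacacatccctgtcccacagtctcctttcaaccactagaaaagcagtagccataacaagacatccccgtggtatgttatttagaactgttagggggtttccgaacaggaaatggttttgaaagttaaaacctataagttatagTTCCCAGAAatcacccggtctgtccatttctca
Serpina3i, chr12:104262872-104263121, plus strand: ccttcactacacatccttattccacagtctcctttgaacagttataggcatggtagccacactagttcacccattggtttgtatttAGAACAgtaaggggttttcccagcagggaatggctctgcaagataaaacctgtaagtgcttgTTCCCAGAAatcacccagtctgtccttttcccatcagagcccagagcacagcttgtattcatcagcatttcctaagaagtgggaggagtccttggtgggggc

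In pairwise alignments the promoters of Serpina3c and Serpina3n were the most alike of these 5, with 92.7% identity over 247 aligned bases. Those of Serpina3f and Serpina3i matched at 81.4% over 215 bases, Serpina3f and Serpina3g at 79.3% over 145 bases, and Serpina3g and Serpina3i at 77.9% over 181 bases. The STAT element TTCNNNGAA, searched on both strands, was present in Serpina3f, Serpina3g and Serpina3i and in 7.02% of 32851 RefSeq promoters of the same length. AGAACA was present in Serpina3c, Serpina3i and Serpina3n and in 16.1% of all promoters. A loose NF-kB element, GGG and CC with any 5 bases between, was present in Serpina3f, Serpina3g, Serpina3i and Serpina3n, and 45.8% of all promoters hold it. The C/EBP element TTGCNNAA (9.56% of all promoters) was found in Serpina3f. The letters TATAAA of the TATA box (12.4%) were found in Serpina3c, 132 to 127 bases before the start. In Serpina3f they lay on the opposite strand, 186 to 181 bases before the start. A stricter NF-kB element, GGGA and TTCC with any 2 bases between (1.21%), and the interferon element, GAAA and GAAA with any 2 bases between (2.98%), were in none of the 5. Every match to the stricter NF-kB element is also a match to the loose one. RefSeq lists a further start for Serpina3f, a little downstream, whose window also holds AGAACA. A match is only a run of letters, and no match says only that these letters are not in this window.

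The deposited values are log2 RPKM (reads scaled by gene length and library depth) after conditional quantile normalization by the authors. Levels of different genes can be compared on this scale because it is per length. No counts were used here, so depth is unknown. The number of genes at or above 0.5 RPKM lay between 16372 and 16497 in 15 libraries and was 17112 in saline replicate 4 labelled Lcn2-/-, whose 25th percentile was also the highest of the 16 (log2 RPKM -2.73). That library stands apart, so results that rest on it are also given without it. The low end of the scale moved with the injection: the 25th percentile lay between -5.78 and -4.58 in LPS libraries and between -4.12 and -2.73 in saline libraries. Transcripts of Lcn2 were present in the libraries labelled Lcn2-/-: Lcn2 was at 40.2, 34.1, 38.3 and 37.2 RPKM in LPS libraries labelled Lcn2-/-, against 71.5, 67.8, 66.7 and 82.7 RPKM in wild-type LPS libraries. In saline libraries it lay between 0.132 and 0.351 RPKM under the label Lcn2-/- and between 0.0650 and 0.204 RPKM in wild type. The deleted part of the gene was not stated in the labels used, and the table holds gene totals, so the groups are called by their label. The hemi-brain label was checked against 10 astrocyte and 10 oligodendrocyte markers, each of which reached 0.5 RPKM in every group.

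Serpina3n was the most abundant member in every library, and most members stood higher after LPS than after saline. Of the 8, 6 did so with no overlap of the groups under the label Lcn2-/-, where 10.5% of all genes did, and 7 in wild type, where 7.69% did. Serpina3c overlapped under the label Lcn2-/- only because saline replicate 4, the library that stands apart, lay above LPS replicate 2. Serpina3n contributed 85.2% ± 3.63 of the summed RPKM of the members in LPS libraries labelled Lcn2-/-, 88.6% ± 1.39 in wild-type LPS libraries, 90.4% ± 1.76 in saline libraries labelled Lcn2-/- and 91.0% ± 0.414 in wild-type saline libraries (mean ± SD, n = 4 each). The summed RPKM of all 8 lay between 60.4 and 104 in LPS libraries labelled Lcn2-/-, between 49.5 and 75.4 in wild-type LPS libraries, between 6.10 and 7.12 in saline libraries labelled Lcn2-/- and between 6.55 and 7.50 in wild-type saline libraries. The 7 other members together held 10.8 to 13.2 RPKM in LPS libraries labelled Lcn2-/- and 5.27 to 7.58 RPKM in wild-type LPS libraries. After saline they held 0.485 to 0.723 RPKM under the label Lcn2-/- and 0.566 to 0.673 RPKM in wild type.

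**Figure D2:**
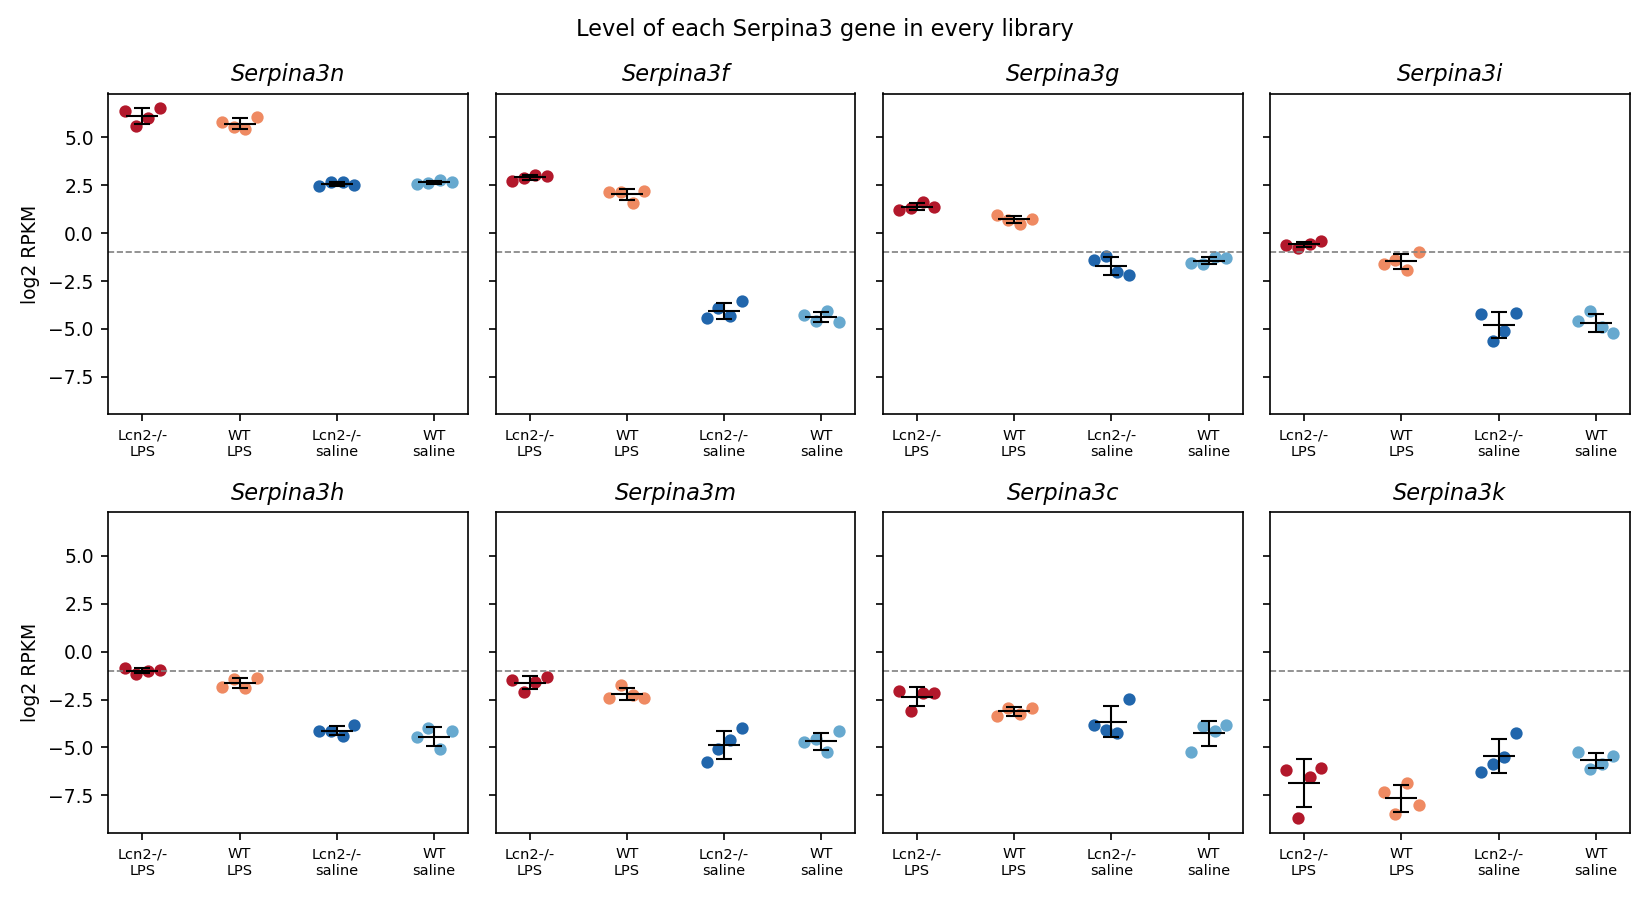
log2 RPKM of each member in every library (points), with the mean and SD of each group of 4 (bars), and the filter on low values at -1 (dashed line). Groups from left to right are Lcn2-/- label with LPS, wild type with LPS, Lcn2-/- label with saline and wild type with saline. Serpina3n lies above the line in all 16 libraries, Serpina3f and Serpina3g in the 8 LPS libraries, and Serpina3c, Serpina3k and Serpina3m in none.

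The order of levels changed with the injection. In LPS libraries of both labels it was Serpina3n, Serpina3f, Serpina3g, Serpina3i, Serpina3h, Serpina3m, Serpina3c and Serpina3k by mean log2 RPKM. The first 3 did not overlap with their neighbours in either group. Serpina3i overlapped with Serpina3h, and Serpina3h with Serpina3m, in wild type, and Serpina3m overlapped with Serpina3c under the label Lcn2-/-. In saline libraries of both labels only Serpina3n and Serpina3g kept clear of the members next in order, and the other 6 each overlapped with a neighbour. Serpina3f overlapped with Serpina3c and Serpina3h after saline and came next to Serpina3n after LPS.

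A gene entered the test only if it reached 0.5 RPKM in at least 3 libraries, which left 17349 genes. Of the 8 members, Serpina3n, Serpina3f, Serpina3g and Serpina3i were tested. Only Serpina3n would have passed on saline libraries alone. Serpina3f, Serpina3g and Serpina3i passed through their LPS libraries, so that they were called supports nothing about the members as a group. Serpina3i reached 0.5 RPKM in 4 LPS libraries labelled Lcn2-/- and in 1 of wild type. It therefore entered the genotype contrast and the interaction only through the group where it was higher. Genes were tested with limma, a linear model with a moderated spread shared between the 4 groups, and called at an adjusted p under 0.05 after Benjamini-Hochberg adjustment over all genes tested. Serpina3c, Serpina3h, Serpina3k and Serpina3m have values from the same model fitted without the filter, to all 33289 genes.

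LPS against saline was compared in each genotype. In mice labelled Lcn2-/- all 4 tested members were called higher, where 48.3% of tested genes were called in either direction and 20.7% were called higher. In wild-type mice the same 4 were called higher, where 25.3% were called in either direction and 11.4% were called higher. Both contrasts have their own saline libraries. The median of all tested genes was near 0 in both (log2 -0.03 under the label Lcn2-/- and -0.02 in wild type).

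Serpina3n, which in mice inhibits granzyme B and neutrophil proteases such as cathepsin G and elastase, was at 83.0, 49.0, 64.9 and 91.7 RPKM in LPS libraries labelled Lcn2-/- and at 55.8, 47.4, 44.2 and 67.9 RPKM in wild-type LPS libraries. It was at 5.46, 6.44, 6.30 and 5.74 RPKM in saline libraries labelled Lcn2-/- and at 5.99, 6.17, 6.85 and 6.39 RPKM in wild-type saline libraries. Every LPS library lay far above every saline library, and the LPS groups of the 2 labels overlapped. Serpina3n rose 11.7-fold under the label Lcn2-/- (log2 3.55 ± 0.16 SE, limma adjusted p = 6.9e-11) and 8.37-fold in wild type (log2 3.06 ± 0.16, limma adjusted p = 7.6e-10). These are bulk tissue values, in which more cells of a type and more RNA per cell, or fewer cells and less RNA per cell, cannot be told apart.

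Serpina3f had the largest fold change of the members. It was at 6.71, 7.49, 8.35 and 7.85 RPKM in LPS libraries labelled Lcn2-/- and at 4.47, 4.45, 3.02 and 4.67 RPKM in wild-type LPS libraries. After saline it was at 0.0461, 0.0664, 0.0495 and 0.0859 RPKM under the label Lcn2-/- and at 0.0516, 0.0418, 0.0587 and 0.0404 RPKM in wild type. All 8 LPS libraries were above all 8 saline libraries, and the LPS groups did not overlap with each other. Serpina3f rose 126-fold under the label Lcn2-/- (log2 6.98 ± 0.20, limma adjusted p = 9.4e-13) and 86.0-fold in wild type (log2 6.43 ± 0.20, limma adjusted p = 3.6e-12). The size of these folds rests on saline values at the bottom of the scale, each of which was shared exactly with 12 to 1033 other genes of the same library. On the log2(RPKM + 0.5) scale the change of Serpina3f was 3.85 under the label Lcn2-/- and 3.07 in wild type, and the gene was called in both.

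Serpina3g, known as Spi2A, inhibits lysosomal cysteine cathepsins that leak into the cytosol and is best known from lymphocytes and macrophages. It was at 2.32, 2.45, 3.13 and 2.54 RPKM in LPS libraries labelled Lcn2-/- and at 1.96, 1.59, 1.40 and 1.69 RPKM in wild-type LPS libraries. After saline it was at 0.380, 0.432, 0.243 and 0.220 RPKM under the label Lcn2-/- and at 0.337, 0.324, 0.427 and 0.402 RPKM in wild type. LPS and saline libraries did not overlap under either label, nor did the LPS groups of the 2 labels overlap with each other. Serpina3g rose 8.47-fold under the label Lcn2-/- (log2 3.08 ± 0.20, limma adjusted p = 4.3e-09) and 4.46-fold in wild type (log2 2.16 ± 0.20, limma adjusted p = 4.7e-07). With 0.5 RPKM added before taking logs, the change of Serpina3g was 1.93 under the label Lcn2-/- and 1.30 in wild type (log2), called in both.

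Serpina3i was at 0.648, 0.584, 0.679 and 0.756 RPKM in LPS libraries labelled Lcn2-/- and at 0.329, 0.382, 0.262 and 0.508 RPKM in wild-type LPS libraries. After saline it was at 0.0527, 0.0203, 0.0294 and 0.0546 RPKM under the label Lcn2-/- and at 0.0418, 0.0596, 0.0338 and 0.0266 RPKM in wild type. The LPS libraries were again above all saline libraries, and those labelled Lcn2-/- were above those of wild type. Serpina3i rose 18.3-fold under the label Lcn2-/- (log2 4.2 ± 0.39, limma adjusted p = 4.1e-07) and 9.29-fold in wild type (log2 3.22 ± 0.39, limma adjusted p = 1.3e-05). Its saline values were shared with up to 385 other genes of a library. On the log2(RPKM + 0.5) scale the change of Serpina3i was 1.11 under the label Lcn2-/- and 0.68 in wild type, called in both.

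The pseudogene Serpina3h is the closest copy of Serpina3i. It lay between -1.18 and -0.87 on the log2 RPKM scale in LPS libraries labelled Lcn2-/-, between -1.88 and -1.38 in wild-type LPS libraries, between -4.40 and -3.84 in saline libraries labelled Lcn2-/- and between -5.09 and -4.01 in wild-type saline libraries. LPS and saline libraries did not overlap. In the fit without the filter it was called higher under the label Lcn2-/- (log2 3.13 ± 0.27, limma adjusted p = 1.3e-07) and in wild type (log2 2.80 ± 0.27, limma adjusted p = 7.7e-07). On the log2(RPKM + 0.5) scale the change of Serpina3h was 0.84 under the label Lcn2-/- and 0.59 in wild type, called in both. Serpina3h shares 15.8% of its 50-base windows with Serpina3i, 14.1% with Serpina3g and 6.22% with Serpina3f. Part of its reads could come from any of these, of which Serpina3f was the most abundant after LPS.

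Serpina3m, Serpina3c and Serpina3k are known mainly as liver genes, and Serpina3k is the mouse contrapsin, a plasma inhibitor of trypsin-like proteases. None of them reached 0.5 RPKM in any library. Serpina3m lay between -2.08 and -1.32 (log2 RPKM) in LPS libraries labelled Lcn2-/-, between -2.42 and -1.74 in wild-type LPS libraries, between -5.75 and -3.99 in saline libraries labelled Lcn2-/- and between -5.23 and -4.17 in wild-type saline libraries. It did not overlap between LPS and saline, and the fit without the filter called it higher under the label Lcn2-/- (log2 3.25 ± 0.37, limma adjusted p = 3.5e-06) and in wild type (log2 2.47 ± 0.37, limma adjusted p = 7.0e-05). With 0.5 RPKM added before taking logs, the change of Serpina3m was 0.63 under the label Lcn2-/- and 0.41 in wild type, called in both.

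Serpina3c lay between -3.09 and -2.04 (log2 RPKM) in LPS libraries labelled Lcn2-/-, between -3.35 and -2.92 in wild-type LPS libraries, between -4.24 and -2.49 in saline libraries labelled Lcn2-/- and between -5.23 and -3.84 in wild-type saline libraries. The groups overlapped under the label Lcn2-/- and not in wild type. The overlap was between saline replicate 4 labelled Lcn2-/- (-2.49), the library that stands apart, and LPS replicate 2 of that label (-3.09). The other saline libraries of that label lay between -4.24 and -3.82, and its other LPS libraries between -2.16 and -2.04. Without the filter Serpina3c was called higher under the label Lcn2-/- (log2 1.30 ± 0.41, limma adjusted p = 0.015) and in wild type (log2 1.15 ± 0.41, limma adjusted p = 0.034). Without saline replicate 4 labelled Lcn2-/-, the change under that label was 1.69 (limma adjusted p = 0.0015). The call in wild type was lost with wild-type saline replicate 1 or 3, or wild-type LPS replicate 2, 3 or 4, left out, with an adjusted p of up to 0.12, and on both scales with a pseudocount. On the log2(RPKM + 0.5) scale the change of Serpina3c was 0.25 under the label Lcn2-/-, which was called, and 0.15 in wild type.

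Serpina3k went the other way. It lay between -8.70 and -6.08 (log2 RPKM) in LPS libraries labelled Lcn2-/-, between -8.46 and -6.89 in wild-type LPS libraries, between -6.30 and -4.24 in saline libraries labelled Lcn2-/- and between -6.12 and -5.23 in wild-type saline libraries. The groups overlapped under the label Lcn2-/- and not in wild type. Without the filter it was called lower under the label Lcn2-/- (log2 -1.40 ± 0.56, limma adjusted p = 0.045) and in wild type (log2 -2.0 ± 0.56, limma adjusted p = 0.0088). In that fit 41.7% of all genes were called lower under the label Lcn2-/- and 34.5% in wild type. Genes under 0.5 RPKM in every library, 14648 in number, had a median per library between -5.61 and -4.81 in LPS libraries labelled Lcn2-/-, between -6.08 and -5.23 in wild-type LPS libraries, between -4.24 and -2.87 in saline libraries labelled Lcn2-/- and between -4.19 and -4.05 in wild-type saline libraries. On the log2(RPKM + 0.5) scale the change of Serpina3k was -0.04 under both labels, and it was not called. Under the label Lcn2-/- its call was also lost in 11 of 16 fits that left out a library, and without saline replicate 4 of that label the change was -0.99 (limma adjusted p = 0.15).

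Across all 8 members, the fit without the filter called 7 higher and 1 lower under each label, where 11.7% of all genes were called higher under the label Lcn2-/- and 6.94% in wild type. The median change of the 8 was 3.19 (log2) under the label Lcn2-/-, against a median of all genes of -0.32, and 2.64 in wild type, against -0.22. Serpina3k lay wholly below saline in wild type, as did 35.5% of all genes.

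**Figure D3:**
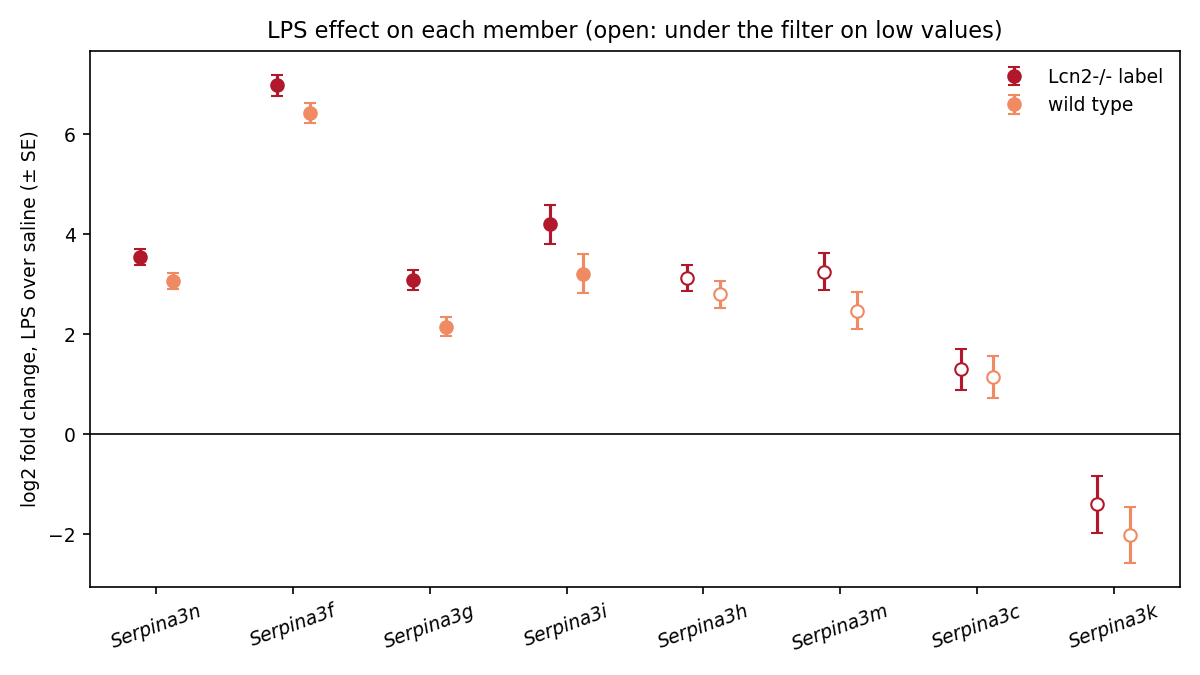
log2 fold change of LPS over saline for each member in mice labelled Lcn2-/- (dark red, left) and wild-type mice (orange, right), with the SE of the limma fit. Open points are members under the filter on low values, taken from the fit without it. Serpina3f has the largest change (6.98 and 6.43), and Serpina3k alone lies below 0.

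Serpina3f, Serpina3g, Serpina3h and Serpina3i have neighbouring 5′ ends, from -192 to -144 kb relative to that of Serpina3n. Each was called higher after LPS under both labels, as were Serpina3c, Serpina3m and Serpina3n outside this run. On either side of the run, Serpina3e-ps and Serpina3j changed by 0.04 and -1.07 (log2, no filter) under the label Lcn2-/-. In wild type they changed by 0.08 and -1.25. Levels after LPS did not follow position in the cluster in a simple order. The members with 4-library means above 0.5 RPKM after LPS in both groups, Serpina3n, Serpina3f and Serpina3g, are not neighbours in one block: relative to the 5′ end of Serpina3n, those of Serpina3f and Serpina3g lie at -192 and -170 kb, with Serpina3h, Serpina3i, Serpina3k and Serpina3m in between. Of the 5 other Serpina3 symbols in the table, Serpina3j, Serpina3e-ps and Serpina3l-ps lie between members, and Serpina3a and Serpina3b lie beyond Serpina3c. None of the 5 reached 0.5 RPKM in any library. Their summed level lay between 0.0677 and 0.231 RPKM in LPS libraries labelled Lcn2-/-, between 0.0603 and 0.0981 in wild-type LPS libraries, between 0.171 and 0.325 in saline libraries labelled Lcn2-/- and between 0.124 and 0.190 in wild-type saline libraries. Serpina3a, at the far end, had a log2 change of -2.77 under the label Lcn2-/- and -2.40 in wild type in the fit without the filter. That fit called 41.7% of all genes lower under the label Lcn2-/- and 34.5% in wild type. Serpina3a was at 0.0612 RPKM at most, at the low end of the scale, which moved with the injection.

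**Figure D4:**
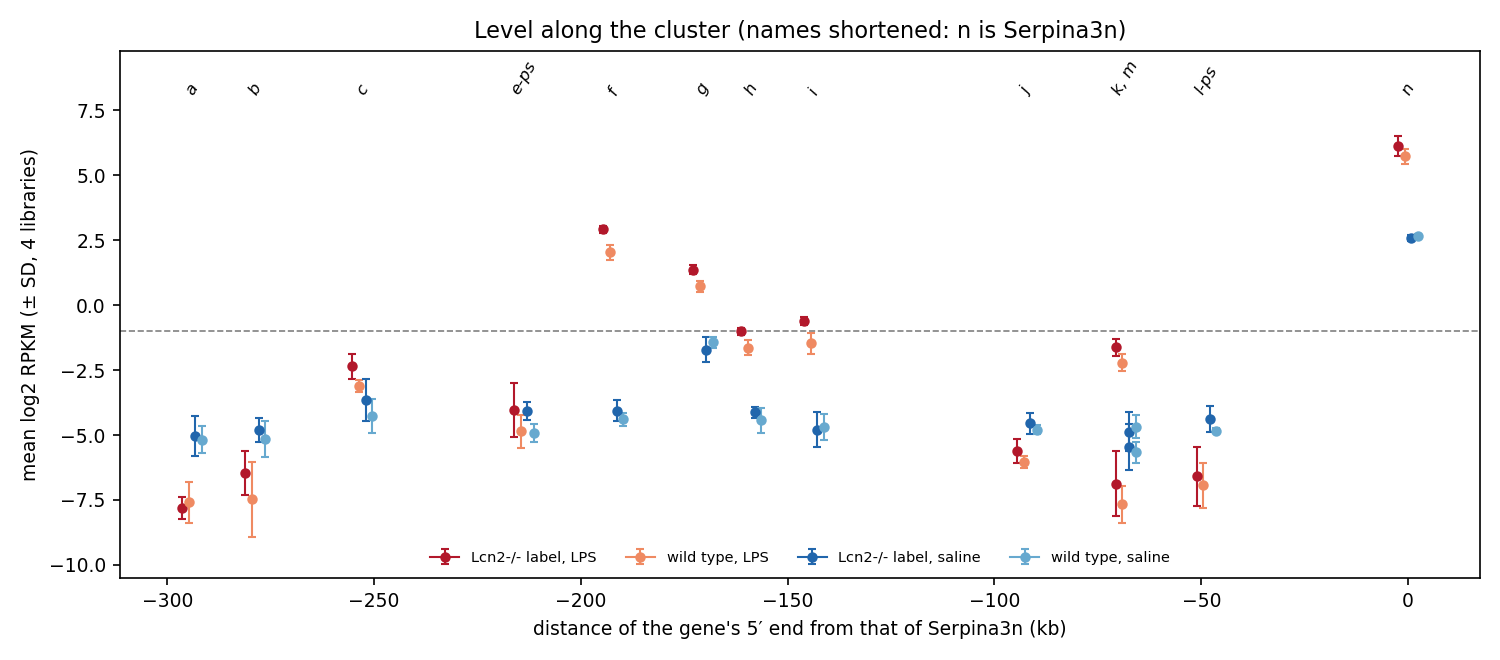
Mean log2 RPKM (± SD, 4 libraries) of every Serpina3 symbol in the table against the distance of its 5′ end from that of Serpina3n in kb, for Lcn2-/- label with LPS (dark red), wild type with LPS (orange), Lcn2-/- label with saline (dark blue) and wild type with saline (light blue). The dashed line is the filter on low values, and the groups of a gene are set slightly apart. Serpina3k and Serpina3m share a position, and only Serpina3n, Serpina3f, Serpina3g and, under the label Lcn2-/-, Serpina3h and Serpina3i have group means near or above the line after LPS.

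After LPS, all 8 members had a higher mean in mice labelled Lcn2-/- than in wild-type mice. Of the 8, 4 were under the filter on low values. The difference passed the test for Serpina3f and Serpina3g. Of the 4 tested members 2 were called higher, where 15.8% of tested genes were called in either direction and 7.04% were called higher. Serpina3f was 1.85-fold higher (log2 0.89 ± 0.20, limma adjusted p = 0.0095) and Serpina3g 1.57-fold higher (log2 0.65 ± 0.20, limma adjusted p = 0.035). Serpina3i, tested only through its libraries labelled Lcn2-/-, had a similar estimate with a wider error (log2 0.88 ± 0.39, limma adjusted p = 0.14). The estimate for Serpina3n was smaller (log2 0.40 ± 0.16, limma adjusted p = 0.098). Neither passed the threshold, which does not show that they did not differ, since the 95% interval was 0.05 to 1.72 for Serpina3i and 0.06 to 0.74 for Serpina3n, before adjustment for the number of genes. The per-library values above show the same: Serpina3f, Serpina3g, Serpina3i and Serpina3h did not overlap between the labels after LPS, a separation in this direction shown by 8.47% of all genes, and the other 4 members overlapped.

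In the fit without the filter Serpina3h differed by 0.63 (log2, limma adjusted p = 0.18), Serpina3m by 0.59 (0.37), Serpina3c by 0.76 (0.30) and Serpina3k by 0.80 (0.43), each p adjusted in the same way. The median of the 8 was 0.71, against a median of all genes of 0.06. The low end of the scale also differed between these groups. Genes under 0.5 RPKM in every library had library medians between -5.61 and -4.81 under the label Lcn2-/- after LPS. In wild-type LPS libraries these medians lay between -6.08 and -5.23. How far this moved the members under the filter was not tested. The call for Serpina3f held with any library left out (adjusted p between 0.0016 and 0.039). The call for Serpina3g was lost with replicate 2, 3 or 4 of either LPS group left out (adjusted p between 0.059 and 0.11) and in the fit without the filter (0.051). Serpina3n was called with LPS replicate 2 labelled Lcn2-/- left out (log2 0.58, limma adjusted p = 0.015) or wild-type LPS replicate 4 left out (log2 0.52, limma adjusted p = 0.044).

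After saline, none of the 4 tested members was called between the labels, where 0.0461% of tested genes (8 genes) were called and 1897 genes had an unadjusted p under 0.05. The log2 difference was -0.09 ± 0.16 for Serpina3n (limma adjusted p = 0.85), 0.34 ± 0.20 for Serpina3f (0.53), -0.27 ± 0.20 for Serpina3g (0.58) and -0.10 ± 0.39 for Serpina3i (0.93). All 8 members overlapped between the labels, where 2.19% of all genes lay wholly higher and 1.42% wholly lower. The 95% interval for Serpina3n ran from -0.43 to 0.25, and no tested member had an unadjusted p under 0.05. Without saline replicate 4 labelled Lcn2-/-, the difference of Serpina3f was 0.16 and that of Serpina3g -0.11, again not called. In the fit without the filter the difference of Serpina3c was 0.61 with all libraries and 0.22 without that library, called in neither.

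**Figure D5:**
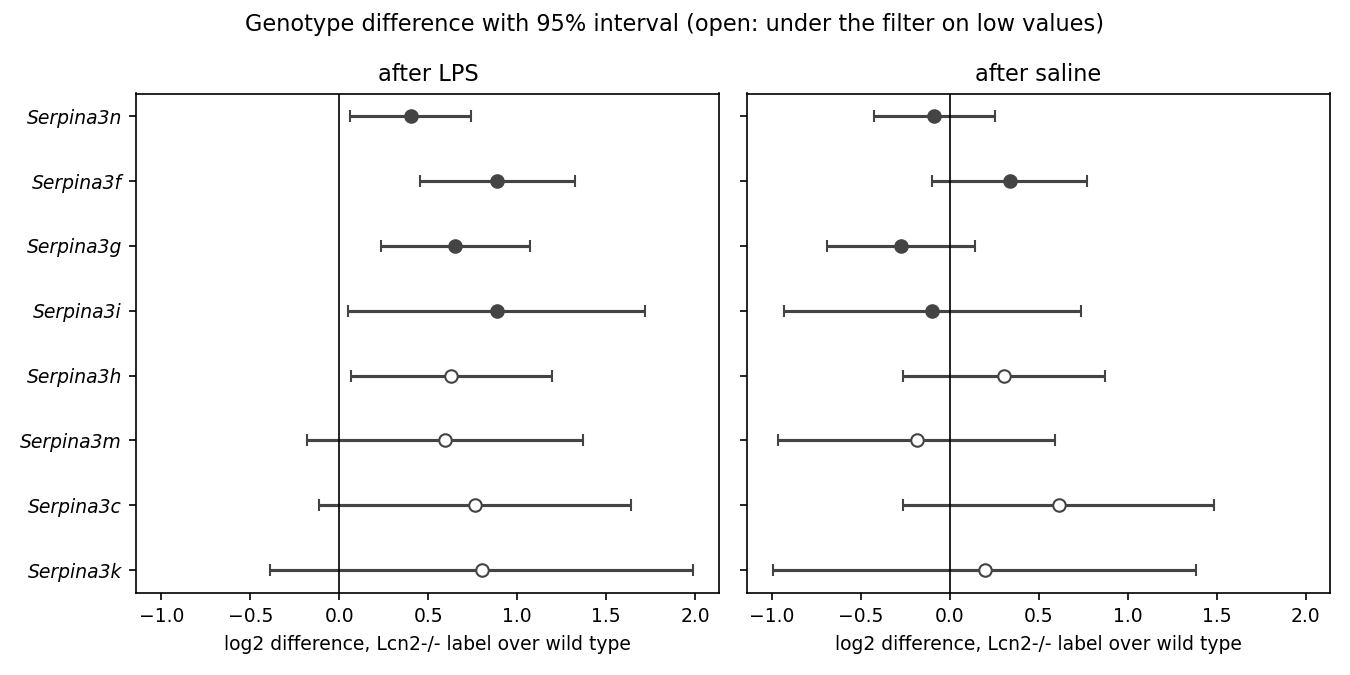
log2 difference of each member between mice labelled Lcn2-/- and wild-type mice after LPS (left) and after saline (right), with the unadjusted 95% interval of the limma fit. Open points are members under the filter on low values. After LPS all 8 estimates are above 0, from 0.40 to 0.89, while after saline they scatter around 0, from -0.27 to 0.61. The value of 0.61 is that of Serpina3c, which was 0.22 without saline replicate 4 labelled Lcn2-/-.

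Whether the LPS effect itself differed between the labels was tested as an interaction. Serpina3g was called (log2 0.93 ± 0.28, limma adjusted p = 0.049), the only one of the 4 tested members, where 8.82% of tested genes were called in either direction and 3.9% in the direction of a larger effect under the label Lcn2-/-. The estimates were 0.55 ± 0.29 for Serpina3f (limma adjusted p = 0.22), 0.98 ± 0.55 for Serpina3i (0.26) and 0.49 ± 0.23 for Serpina3n (0.17). The call for Serpina3g sat at the threshold: it was lost in 14 of 16 fits that left out a library, and was kept only without saline replicate 1 or 2 labelled Lcn2-/-. Without saline replicate 4 of that label, the library that stands apart, it was 0.77 (limma adjusted p = 0.052). On the log2(RPKM + 0.5) scale Serpina3f (0.78, limma adjusted p = 0.0039) and Serpina3i (0.43, limma adjusted p = 0.035) were called as well, and Serpina3n with LPS replicate 2 labelled Lcn2-/- left out (0.66, limma adjusted p = 0.0497).

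Within the LPS groups the libraries did not rank the members alike. LPS replicate 2 labelled Lcn2-/- was the lowest of its group for Serpina3n, Serpina3c, Serpina3h, Serpina3i, Serpina3k and Serpina3m, and was not the lowest for Serpina3f and Serpina3g. Replicate 3 was the highest of that group for both Serpina3f and Serpina3g. Wild-type LPS replicate 3 was the lowest of its group for Serpina3n, Serpina3f, Serpina3g, Serpina3h and Serpina3i.

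The tested genes with the pattern most like each member were listed by Pearson's r of log2 RPKM over the 16 libraries. All points share the split between LPS and saline, which sets most of r, and r is given as a description. For Serpina3n they were Tnfrsf1a (0.996), Tead1 (0.994), Adamts1 (0.994), Cyp1b1 (0.993) and Slc39a14 (0.993). For Serpina3f they were Rasd1 (0.996), Osmr (0.996), Ifitm3 (0.995), Mt2 (0.995) and Cdkn1a (0.994), and for Serpina3i Clec4d (0.986), Endod1 (0.985), Crispld2 (0.985), Osmr (0.984) and Tead1 (0.981). For Serpina3g they were Gbp4 (0.989), Gbp2 (0.988), Oplah (0.987), Il4ra (0.987) and Selp (0.986), a list that opens with a pair of interferon-inducible guanylate-binding proteins. Lcn2 had an r of 0.978 with Serpina3f, 0.972 with Serpina3n, 0.933 with Serpina3g and 0.929 with Serpina3i.

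Genes of signalling pathways known to act upstream of acute phase serpins were read in the same libraries. Some of them are feedback inhibitors or targets of these pathways, and their part in the Serpina3 values was not tested. Of 23 cytokine, receptor, STAT, NF-kB and glucocorticoid pathway genes, 20 were tested. In mice labelled Lcn2-/- 17 were called higher after LPS, where 20.7% of all tested genes were, and 1 lower, with a median of 1.35 (log2) against -0.03 for all tested genes. In wild type 17 were called higher, where 11.4% of all tested genes were, and 1 lower, with a median of 1.11 against -0.02. Il6, the cytokine, changed by 4.43 (log2) under the label Lcn2-/- and by 3.50 in wild type, and Socs3, the feedback inhibitor of STAT3 signalling, by 4.22 under the label Lcn2-/- and by 3.20 in wild type. Osmr, a subunit of the oncostatin M receptor, changed by 3.46 under the label Lcn2-/-, and Cebpd, an acute phase transcription factor, by 2.99 in wild type. Nr3c1, the glucocorticoid receptor, was the gene called lower (-0.71 under the label Lcn2-/- and -0.57 in wild type). Jak2 was not called (0.09 under the label Lcn2-/- and 0.04 in wild type).

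Between the labels after LPS, 9 of these 20 genes were called higher and 3 lower, with a median of 0.37 against -0.01 for all tested genes, of which 15.8% were called in either direction and 7.04% higher. Il6 was 3.83-fold higher (log2 1.94 ± 0.26, limma adjusted p = 0.00023), Irf1, an interferon response factor, 2.52-fold higher, and Socs3 2.15-fold higher. Tsc22d3 and Fkbp5, a pair of glucocorticoid-induced genes, and Lifr, a receptor of IL-6 type cytokines, were lower, by -0.34, -0.22 and -0.22 on the log2 scale. Jak1 was not called (0.12). The interaction called 4 higher and 3 lower, with Irf1 at 1.56 and Tsc22d3 at -0.50. After saline none of the 20 was called by limma, where 0.0461% of all tested genes were called and 1897 had an unadjusted p under 0.05.

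Proteases that serpins of this group are known or thought to inhibit were mostly under the filter. Of 18 listed, 7 were tested. Ctss, Ctsl and Ctsb, lysosomal cysteine cathepsins, were called higher after LPS by 0.24, 0.18 and 0.21 (log2) under the label Lcn2-/- and by 0.28, 0.28 and 0.19 in wild type. Ctsh was called lower (-0.54 under the label Lcn2-/- and -0.56 in wild type). Among all tested genes 48.3% were called in either direction under the label Lcn2-/- and 25.3% in wild type. None of the 7 was called between the labels after either injection or in the interaction. Ctsg and Elane, which encode cathepsin G and neutrophil elastase, and Gzmb, which encodes granzyme B, did not pass the filter.

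Other serpins were called in both directions after LPS. Of 14 other clade A serpins only Serpina9 was tested, and it was not called in any comparison. Of 33 serpins of other clades 16 were tested: 4 were called higher and 5 lower after LPS under the label Lcn2-/-, and 5 higher and 5 lower in wild type. Of all tested genes, 48.3% were called in either direction under the label Lcn2-/- and 25.3% in wild type. Serpinf2, which encodes alpha-2-antiplasmin, changed by 3.38 (log2) under the label Lcn2-/- and 2.85 in wild type, and Serping1, the C1 inhibitor, by 1.36 under the label Lcn2-/- and 1.06 in wild type. Serpinb1a, an inhibitor of neutrophil serine proteases, changed by -1.69 under the label Lcn2-/- and -2.24 in wild type. Serpinb8 was called in the interaction (log2 -0.52).

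Markers of cell types that are known to express members were read beside these results. Of 11 reactive astrocyte markers, all tested, 11 were called higher after LPS under the label Lcn2-/- and 10 in wild type. Of all tested genes, 20.7% were called higher after LPS under the label Lcn2-/- and 11.4% in wild type. The summed level of these markers lay between 298 and 336 RPKM in LPS libraries labelled Lcn2-/- and between 179 and 229 in wild-type LPS libraries. In saline libraries it lay between 51.6 and 64.1 under the label Lcn2-/- and between 58.9 and 69.0 in wild type. Between the labels after LPS 5 of 11 were called higher, where 7.04% of all tested genes were. The 10 general astrocyte markers summed to 653 to 677 RPKM in LPS libraries labelled Lcn2-/-, 634 to 669 in wild-type LPS libraries, 544 to 570 in saline libraries labelled Lcn2-/- and 556 to 575 in wild-type saline libraries, with 4 called higher and 1 lower after LPS under each label. Their median change was 0.04 (log2) under the label Lcn2-/- and 0.05 in wild type. Gfap, which was called higher after LPS, is in both lists.

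Hepatocyte markers, relevant because the liver expresses several members, stayed low: the 9 found summed to 2.06 to 2.86 RPKM in LPS libraries labelled Lcn2-/-, 2.15 to 2.28 in wild-type LPS libraries, 1.81 to 2.27 in saline libraries labelled Lcn2-/- and 1.83 to 2.43 in wild-type saline libraries. Alb, Apoa1, Fga, Fgb, Fgg, Ahsg and Serpina1a were all under the filter, and Apoh was called higher after LPS under the label Lcn2-/- (log2 0.63). Of 10 neutrophil markers 5 were tested and 3 called higher after LPS under each label, and none was called between the labels. Their summed level was 11.3 to 28.5 RPKM in LPS libraries labelled Lcn2-/-, 11.2 to 17.7 in wild-type LPS libraries, 5.22 to 7.61 in saline libraries labelled Lcn2-/- and 3.21 to 9.50 in wild-type saline libraries. Of 10 endothelial markers, 2 were called higher and 6 lower after LPS under the label Lcn2-/-, and 3 higher and 5 lower in wild type. The 8 T and NK cell markers were all under the filter. Of 10 microglial markers, 2 were called higher and 7 lower after LPS under the label Lcn2-/-, and 2 higher and 6 lower in wild type. Of 10 oligodendrocyte markers, 1 was called higher and 5 lower under the label Lcn2-/-, and 0 higher and 5 lower in wild type. Of 10 choroid plexus markers, 5 were called lower under the label Lcn2-/- and 3 in wild type, and of 4 tested erythrocyte markers 0 were called lower under the label Lcn2-/- and 1 in wild type. Of all tested genes, 48.3% were called in either direction after LPS under the label Lcn2-/- and 25.3% in wild type. The counts of choroid plexus markers lay near these shares. Between the labels after LPS, where 15.8% of all tested genes were called, limma called 1 of 10 endothelial markers higher and 4 lower, with Slco1a4, a transporter of brain endothelium, at -2.34 (log2). It called 1 of 10 microglial markers higher and 2 lower, 1 of 10 astrocyte markers higher and 1 lower, 1 of 10 oligodendrocyte markers higher and 0 lower, and 1 of 10 choroid plexus markers higher and 1 lower. Of 4 tested erythrocyte markers 1 was called higher, and their median was 0.78 (log2). Medians of the other tested marker lists lay between -0.25 (endothelial) and 0.47 (neutrophil), and that of the 8 Serpina3 genes without the filter was 0.71. After LPS the erythrocyte median was 0.32 under the label Lcn2-/- and -0.95 in wild type. That of the 8 Serpina3 genes was 3.19 and 2.64. The part of these cell type changes in the values of the Serpina3 genes was not tested.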

How the data were processed

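RNA from sonicated hemi-brain was purified on Direct-zol columns with DNase I, and libraries followed standard Illumina methods, per the labels' protocols. The authors deposited log2 RPKM values after conditional quantile normalization, 1 column per sample, of which 0 were left unused. The build is mm10 per the submitters' processing notes. Aligner, counting, annotation and strandedness: not given in the sources used here. No counts were used, so no counting interval or detection limit is given.

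Of 33289 Ensembl IDs, 32695 matched a GENCODE vM21 symbol. Genes with a log2 RPKM of at least -1 (0.5 RPKM) in at least 3 of 16 samples were kept (17349), which removed 15940. A group-means model was fitted with limma 3.58.1 (R 4.3.3), with variances moderated along their trend, and was tested on simulated data. Tests were two-sided, adjusted by Benjamini-Hochberg over all tested genes, and called at an adjusted p under 0.05. Nothing in the labels says how the mice were bred or handled in batches, so the p-values reflect the spread between these samples, which may be partly technical. The series text gives 3 to 4 replicates per group, and 4 were used. Replicate numbers follow sample order and pair nothing.

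The members, gene lists and tests were chosen with earlier results of these data known. Genes named were the 8 members and, per list and comparison, up to 3 called genes of largest change each way and the best expressed uncalled gene. Not every gene this rule names is reported here. Genes under the filter, and values of a named gene in a further comparison, were added after their values were seen. Windows of 50 and 100 bases were compared between all GENCODE vM21 transcripts. Transcripts and RefSeq promoters were aligned with Biopython 1.88. Protein sequences were not analysed here.

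Alternatives were log2(RPKM + 0.5), log2(RPKM + 0.1), no filter, a filter of at least 0 in at least 4 samples, the compared groups alone, no trend, libraries centred on their medians, and each library left out in turn. Combining these with no filter for Serpina3c, Serpina3h, Serpina3k and Serpina3m was chosen after seeing the data.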

Additional observations from a re-analysis of the deposited data

Results flagged for a closer look

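Among 32 groups of 4 libraries checked, 8 members in each of 4 groups, 2 held a library far from the other 3, and chance flags about 1 in 20 groups. Serpina3c was at a log2 RPKM of -3.09 in LPS replicate 2 labelled Lcn2-/-, while the other 3 libraries of that group lay between -2.16 and -2.04. The gap to the nearest of them was 0.882 of the group's range. Serpina3f was at 1.59 in wild-type LPS replicate 3, while the other 3 lay between 2.15 and 2.22, with a gap of 0.890 of the range.

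The LPS effect on Serpina3g differed between the labels by 0.93 (log2, limma interaction, adjusted p = 0.049). It was larger under the label Lcn2-/-, where all 4 LPS libraries were above all 4 wild-type LPS libraries. The call was lost in 14 of 16 fits that left out a library, among them the fit without saline replicate 4 labelled Lcn2-/- (0.77, limma adjusted p = 0.052). For Serpina3g it was also lost with no filter (limma adjusted p = 0.080) and without the trend (0.055).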

How the results depend on the processing

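No paired analysis was possible because replicate numbers follow sample order only. No called result changed direction. Uncalled estimates near 0 changed sign with a library left out, after saline for Serpina3i, Serpina3k and Serpina3m and in the interaction for Serpina3c, and on log2(RPKM + 0.5) in the interaction for Serpina3k. The cause of the changes below was not tested, except that with no filter more genes are tested. With no filter, limma called 8 members after LPS under each label, 1 member between the labels after LPS and 0 in the interaction. It called 0 in the interaction without the trend, 3 on log2(RPKM + 0.5) and 2 on log2(RPKM + 0.1), against 1 otherwise. Beside those counts of 0, the interaction had an unadjusted p under 0.05 in 4938 of the tested genes. Over all genes, no filter gave 17808 calls after LPS under the label Lcn2-/- (22% of them higher, against 42.8%), 13790 in wild type (16.8% against 45.1%), 3 between the labels after saline and 905 in the interaction, and moved the median of all genes to -0.32 and -0.22 in the LPS contrasts. With only the compared groups, 3 genes were called between the labels after saline and 4393 after LPS. The stricter filter left Serpina3i untested, and the interaction has no fit with only 2 groups.

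With each library left out in turn, members called were 4 to 4 after LPS under each label, 1 to 2 between the labels after LPS, 0 to 0 after saline and 0 to 1 in the interaction. Over all genes the ranges were 7307 to 8452 for LPS under the label Lcn2-/-, 3610 to 6018 in wild type, 1511 to 5169 between the labels after LPS, 3 to 13 after saline and 740 to 2270 in the interaction. Between the labels after LPS, against 2739 with all libraries, 5169 came without saline replicate 4 labelled Lcn2-/-, 1511 and 1782 without LPS replicates 3 and 2 of that label, and 1750 and 1733 without wild-type LPS replicates 1 and 3. In the interaction, against 1530, 780 and 857 came without LPS replicates 3 and 2 labelled Lcn2-/-, 740, 1000 and 1010 without wild-type LPS replicates 1, 2 and 3, and 764 and 898 without wild-type saline replicates 3 and 4. After saline, 13 genes, against 8, came without saline replicate 4 labelled Lcn2-/-.

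Between the labels after LPS, Serpina3i passed the threshold on log2(RPKM + 0.5) (0.43, adjusted p = 0.0033), on log2(RPKM + 0.1) (0.73, 0.015) and with only the compared groups (0.88, 0.013), and Serpina3h on the same scales and groups without the filter (0.28, 0.50 and 0.63). In the interaction Serpina3f passed on log2(RPKM + 0.1) (0.75, 0.022) and Serpina3i on log2(RPKM + 0.5) (0.43, 0.035).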
